A study of Mus musculus with 12 samples.

Results

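DNA methylation of PKD1-Het cells was compared between 3 libraries of cells given metformin, tolvaptan and Aza as free drugs (F-MTAza) and 3 libraries of cells given PBS. PKD1-Het cells are proximal renal tubule epithelial cells that carry 1 working copy of Pkd1, isolated from Pkd1 flox/-:TSLargeT mice, so both groups carry the large T transgene and were used at passage 3. The F-MTAza cells were kept for 24 h in metformin at 300 µM and tolvaptan at 10 µM together with Aza at 50 µM, and the PBS cells received vehicle for the same 24 h. The 6 libraries are those of 2 of the 4 groups of a series of 12 libraries, and no other group entered any comparison here. The CpGs compared were those with at least 5 reads in all 6 libraries, which were 512987 of the 6738639 CpGs listed in at least 1 of them. Since every treated cell received the 3 drugs together, what each drug contributed cannot be told apart in this comparison. The labels do not say whether the replicates came from separate cultures. The p-values taken over library levels therefore measure the spread between these libraries, which may be technical. Calls of single CpGs from pooled reads cover counting error only.

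Aza is 5-aza-2′-deoxycytidine, a cytosine analogue that is built into DNA during replication and traps DNA methyltransferases, so that newly made strands are left unmethylated. Metformin activates AMPK, an energy sensor that restrains growth signalling, and tolvaptan blocks the vasopressin V2 receptor, which drives cAMP in the collecting duct. In mammalian cells most CpGs in gene bodies and intergenic sequence are methylated, while CpG-rich promoters of genes in use are mostly not, and heavily methylated promoters are as a rule those of genes kept silent. The libraries were made by reduced representation bisulfite sequencing (RRBS), which reads DNA cut at CCGG and is therefore rich in CpG-dense sequence. No RNA was read, so a change of level says nothing here about expression.

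The sequences printed here come from regions and gene bodies at either end of the results and show how their CpGs are spaced. They are given for the + strand of mm9 in lower case, with the shared CpGs in capitals. The first set holds 3 intronic regions among those with the largest falls, and the Tead2 window, which holds 9 of the 10 shared CpGs of a gene body that kept less than the others.
Pcnt intron, chr10:75866374-75866514: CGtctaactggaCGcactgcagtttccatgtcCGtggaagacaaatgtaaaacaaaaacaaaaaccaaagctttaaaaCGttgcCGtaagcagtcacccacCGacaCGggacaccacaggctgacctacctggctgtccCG
Kcmf1 intron, chr6:72819608-72819747: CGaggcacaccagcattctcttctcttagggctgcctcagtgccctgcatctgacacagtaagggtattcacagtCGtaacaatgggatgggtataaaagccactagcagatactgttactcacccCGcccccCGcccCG
Gtf3c1 intron, chr7:132847515-132847695: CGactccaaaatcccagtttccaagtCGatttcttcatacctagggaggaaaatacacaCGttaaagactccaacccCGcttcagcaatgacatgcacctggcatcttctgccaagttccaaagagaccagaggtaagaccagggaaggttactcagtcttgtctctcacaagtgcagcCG
Tead2 intron, chr7:52486151-52486342: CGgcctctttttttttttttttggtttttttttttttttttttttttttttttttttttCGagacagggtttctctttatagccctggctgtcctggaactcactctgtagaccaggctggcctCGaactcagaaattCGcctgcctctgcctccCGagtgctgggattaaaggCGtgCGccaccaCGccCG
The second set holds exonic windows of 4 gene bodies that kept most of their methylation.
Insm2 exon, chr12:56701497-56701617: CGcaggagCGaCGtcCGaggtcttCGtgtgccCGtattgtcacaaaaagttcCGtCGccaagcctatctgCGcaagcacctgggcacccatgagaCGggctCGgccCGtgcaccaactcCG
Fbll1 exon, chr11:35611501-35611601: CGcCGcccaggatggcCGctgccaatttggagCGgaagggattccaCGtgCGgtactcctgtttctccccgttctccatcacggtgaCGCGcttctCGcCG
Nkx2-1 exon, chr12:57634205-57634301: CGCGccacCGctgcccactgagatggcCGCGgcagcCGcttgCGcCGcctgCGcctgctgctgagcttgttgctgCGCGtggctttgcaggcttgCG
Dact3 exon, chr7:17471027-17471219: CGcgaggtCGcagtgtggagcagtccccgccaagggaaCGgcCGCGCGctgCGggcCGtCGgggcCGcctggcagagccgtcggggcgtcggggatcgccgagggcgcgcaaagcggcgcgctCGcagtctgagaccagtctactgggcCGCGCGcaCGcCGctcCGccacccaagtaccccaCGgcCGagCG
The Pcnt region holds 8 CpGs in 141 bp, all of them shared, and the Insm2 window holds 13 in 121 bp. The Dact3 window holds 33 CpGs in 193 bp, of which 20 were shared. Windows of gene bodies were picked as the stretch of at most 200 bp with the most shared CpGs, whereas regions were bounded by their called CpGs. Their spacing is therefore not compared on equal terms. A gene body that kept less can also hold a dense window, as at Galnt3 with 10 CpGs in 109 bp. That window stood at only 28.8, 30 and 25.1% in PBS, so it did not start highly methylated. Mean level in the Pcnt region was 97.8, 98.2 and 97.8% in PBS and 35.4, 33.7 and 15.7% after F-MTAza, whereas in the Insm2 window it was 98.8, 97.9 and 98.1% in PBS and 90.7, 93.5 and 89.7% after F-MTAza. Both stood above 97% in every PBS library. They were picked from opposite ends of the results, so their distance after F-MTAza was set by that choice.

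The libraries held between 25336747 and 65817118 reads over their listed CpGs, and the median shared CpG had 20, 13 and 28 reads in PBS replicates 1 to 3 and 9, 13 and 10 in F-MTAza replicates 1 to 3. A level at 1 CpG in 1 library therefore carries a wide counting error, and means over many CpGs a small one. Levels correlated across shared CpGs at 0.935 to 0.949 between PBS libraries and at 0.718 to 0.738 between F-MTAza libraries. PBS replicate 2 stood apart from the other PBS libraries in the low range: at CpGs starting under 10% its mean level was 4.65%, against 2.00% and 2.10% in replicates 1 and 3. The share kept by CpGs starting under 10% is therefore given with and without it. As a check of the cell type, the promoters of 5 of 12 proximal tubule marker genes could be tested. Each was taken at 1 start site, the outer end of the annotated gene, so other starts were not checked. None of the 5 was under 10% methylated in PBS, and 3 of them stood at 70% or more. Of 11 marker genes of other kidney cells 4 could be tested, and 3 of them (Aqp2, Pdgfrb and Pecam1) stood at 70% or more. Promoter methylation thus did not separate the labelled cell type from the others, and no RNA was available to do so.

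Every starting level fell. The mean level over all shared CpGs was 64.2, 65.6 and 64.2% in PBS and 43.6, 42.8 and 43.7% after F-MTAza, a fall of 21.3 points that left 67.1% of the starting level. Loss by starting level was read without reusing the same reads: each CpG was put in a class by 2 PBS libraries, and its PBS level was then taken from the third, in turn. CpGs that started at 90% or more, which made up 44.0% of shared CpGs, stood at 95, 95.8 and 95% in PBS and at 65.7, 64.7 and 65.9% after F-MTAza. Those that started between 70 and 90% went from 83.4% ± 0.998 to 54.5% ± 0.691 (SD, n = 3), and those between 50 and 70% went from 60.9% ± 1.66 to 39.3% ± 0.570. The groups did not overlap in any of the 6 classes. For each class the exact two-sided permutation test gave p = 0.1, the smallest that 3 libraries against 3 allow, and 0.1 after adjustment over the 6 classes.

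The share of the starting level that was kept was similar from the middle of the range to the top. It was 62.8% in the class from 30 to 50%, 64.6% from 50 to 70%, 65.3% from 70 to 90% and 68.6% at 90% or more. In points the fall was therefore deepest at the top, with 29.9 points at 90% or more and 15.6 points between 30 and 50%. In the class from 10 to 30% the level went from 20.2, 23.9 and 19.6% in PBS to 13.0, 12.5 and 12.9%. Under 10% it went from 2.00, 4.65 and 2.10% to 1.41, 1.33 and 1.41%, which is 47.4% kept with PBS replicate 2 and 66.0% without it, so the size of that fall rests on this 1 library.

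**Figure D1:**
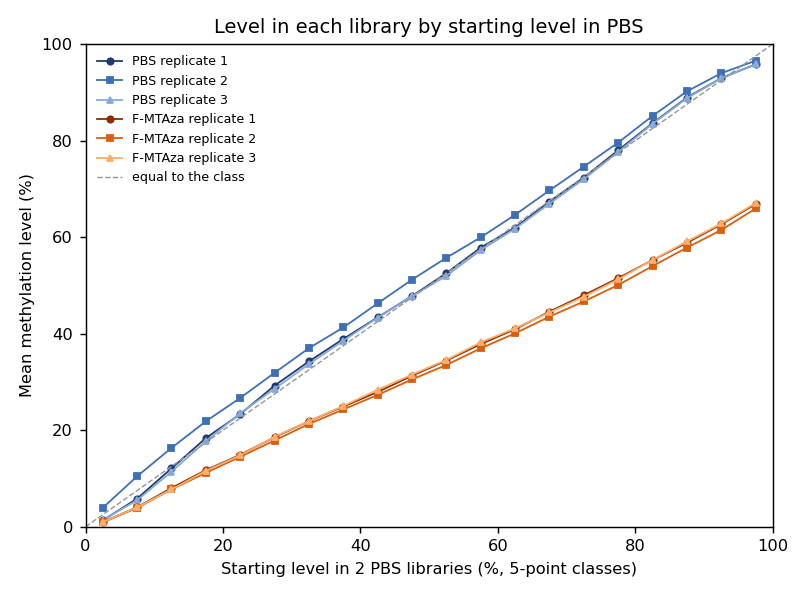
Mean methylation level (%) of shared CpGs in each of the 6 libraries, by starting level in 2 PBS libraries in classes of 5 points; each line is 1 library and the dashed line marks equal level. The 3 F-MTAza lines lie together below the PBS lines in every class, and PBS replicate 2 lies above the other PBS libraries at low starting levels.

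Few highly methylated CpGs were left untouched and few were emptied. Of the CpGs that started at 90% or more, 82.7, 84.9 and 83.2% still read 90% or more in the PBS library that was held out. After F-MTAza 10.9, 8.80 and 11.8% of them did. Many stood in the middle: 50.4, 54.2 and 49.3% were at 30 to 70% in the treated libraries, against 1.27, 1.65 and 1.45% in PBS. Levels under 10% were reached by 0.472, 0.366 and 0.562% of them. Some of this spread is counting error at shallow CpGs, so the 7317 CpGs of this kind with 20 or more reads in every library were looked at by themselves. Pooled over the treated libraries their levels ran from 48.7% at the 5th percentile to 82.2% at the 95th, with an SD of 10.2 points, where counting alone would give 4.33. CpGs that started alike thus ended at different levels.

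At single CpGs the counts ran the same way. Called CpGs had a Benjamini-Hochberg q under 0.01 in a likelihood ratio test on pooled reads and pooled levels 35 or more points apart. By this rule 22% of shared CpGs were hypomethylated (113023) and 0.00448% were hypermethylated (23). Of the CpGs at 90% or more in pooled PBS 36.7% were called lower, and in 74.5% of them every treated library was below every PBS library. Over all shared CpGs that separation held for 47.2% downwards and 0.123% upwards. Promoters had the lowest share of CpGs called lower, 6.32%, against 21.8% for exons, 28.8% for introns and 25.7% between genes. Among CpGs at 90% or more the shares were closer, at 25.4, 29.4, 41.2 and 38.0%. The pooled test takes no account of spread between libraries. With limma on CpG levels 14732 were lower and 1 was higher, and an F test scaled by each CpG's own spread called 0 in either direction at that q, with 99226 lower and 9 higher at an unadjusted p under 0.05. Its smallest q was 0.0228, with 68 CpGs lower at a q under 0.05. On simulated data with known changes that F test made no call at a q under 0.01 either. Far fewer CpGs were changed there than fell here, which makes that q harder to reach. The simulation therefore does not settle what the 0 means.

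The 23 hypermethylated CpGs lay in 4 promoters, 6 exons, 7 introns and 6 intergenic stretches, and in 16 of them every F-MTAza library was above every PBS library. The count rose when 1 library was left out, to 41 without PBS replicate 1, 38 without PBS replicate 2, 58, 82 and 43 without F-MTAza replicates 1, 2 and 3, and 34 without PBS replicate 3. Reads were few, with a median of 8 in a treated library and 11 in a PBS library. The promoter CpG 149 bp upstream of Grin1, an NMDA receptor subunit, read 21.7, 40 and 12.8% in PBS and 45.5, 82.6 and 45.5% after F-MTAza. A pair of neighbouring CpGs in an exon of Zfp64, a zinc finger gene, was higher as well. At the first of them levels were 18.2, 9.09 and 11.1% in PBS and 80, 33.3 and 60% after F-MTAza, on 5 or 6 reads in each treated library. The promoters of Blvrb, a biliverdin reductase, and Gldc, a glycine cleavage enzyme, held 1 such CpG each. At the Gldc CpG F-MTAza replicate 1 read 16.7%, below every PBS library, while replicates 2 and 3 read 88.9 and 87.5%. Others lay in exons of Ier5, Gsc, Pabpc4 and Ptp4a3, in introns of Runx3, Ksr2, Tesc, Cecr2, Rbfox3, Spef2 and Efcab6, and in sequence between genes, among others nearest to Snx16, Prmt6, Aco1, Ust and D19Ertd737e.

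Promoters, the 2000 bp before and the 500 bp after a start site, held 108923 of the shared CpGs and lost fewest points. Their mean level went from 29.6, 31.9 and 29.5% in PBS to 21.4, 21.2 and 21.4% after F-MTAza, a fall of 8.98 points. Exons outside promoters went from 76.9% ± 0.666 to 54.2% ± 0.477 and introns from 74.1% ± 0.694 to 48.7% ± 0.613 (SD, n = 3). Intergenic CpGs stood at 72.1, 73.3 and 72.1% in PBS and at 48.2, 47.2 and 48.3% after F-MTAza, 24.6 points lower. The groups did not overlap in any of the 4 (exact permutation p = 0.1 each, the smallest possible). Promoters started low, with 57.7% of their CpGs under 10% in PBS, against 7.33% of intergenic ones.

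At the same start promoters still kept more. Among CpGs at 90% or more in PBS, those in promoters went from 95, 95.9 and 95% to 70.4, 69.98 and 70.5%, keeping 73.7% of their level. Exons kept 71.4%, intergenic CpGs 68.0% and introns 66.8%. In the PBS libraries the promoter level differed from the intron level by -0.13, 0.01 and -0.17 points, and in the treated libraries by 6.35, 7.01 and 6.2 points. This change of 6.61 points had an exact permutation p of 0.1, the smallest possible, as did each of the other 5 pairs of features. Exons ended 4.87 points above introns after F-MTAza, against 0.78 points in PBS.

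The share kept was highest next to the start site. Among CpGs at 90% or more in PBS, those within 500 bp downstream of a start site stood at 94.8, 95.9 and 94.7% in PBS and 74.3, 73.8 and 74.0% after F-MTAza, so that 77.8% was kept. Farther downstream 74.7% was kept from 500 to 1000 bp, 72.2% from 1000 to 1500 bp and 70.9% from 1500 to 2000 bp. Within 500 bp upstream 75.7% was kept, and from 2000 to 1500 bp upstream 68.7%. Over all CpGs the mean level in the first 500 bp downstream was 25.1% in PBS and 18.3% after F-MTAza, against 75.8% and 50.9% from 2500 to 2000 bp upstream. Along gene bodies the share kept by highly methylated CpGs varied little, between 67.4% and 69.4% over 10 equal stretches of the body. Intergenic CpGs kept 68.0% within 10000 bp of a gene and 68.2% beyond 500000 bp.

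**Figure D2:**
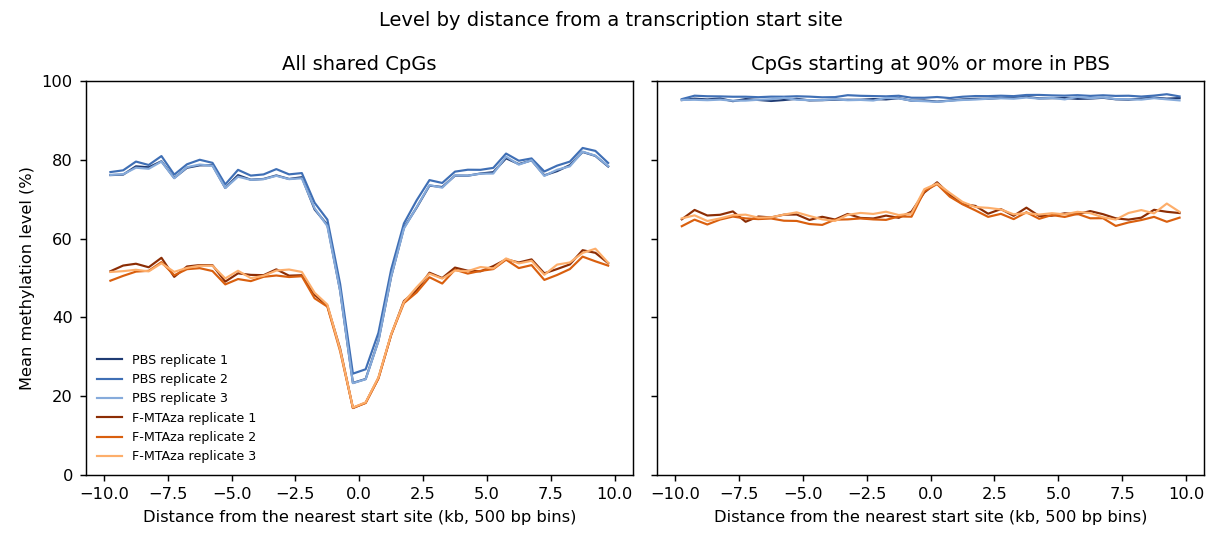
Mean methylation level (%) in each library by distance from the nearest transcription start site, in bins of 500 bp, over all shared CpGs (left) and over CpGs at 90% or more in PBS (right); each line is 1 library. On the right the PBS lines are flat, while the F-MTAza lines rise to 73.8 to 74.3% in the first bin downstream of the start site.

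Level kept rose with the number of CpGs nearby. Each CpG was classed by the number of CpGs, itself included, from 100 bp before to 100 bp after it. Of CpGs at 90% or more in PBS, those with 1 to 3 stood at 93.9, 94.9 and 93.9% in PBS and 60.8, 59.4 and 60.8% after F-MTAza. Those with 16 or more stood at 95.8, 96.5 and 95.5% in PBS and 79.0, 78.7 and 79.0% after F-MTAza. The dense CpGs were thus 1.84, 1.64 and 1.62 points above the sparse ones in PBS and 18.2, 19.2 and 18.2 points above them after F-MTAza. The gap widened by 16.8 points, with no overlap between the groups (exact permutation p = 0.1, the smallest possible). Kept shares were 64.1, 67.1, 72.1 and 82.2% from the sparsest to the densest class.

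The same order held within promoters, exons, introns and intergenic sequence. With 1 to 3 CpGs promoter CpGs kept 64.2%, exon CpGs 64.5%, intron CpGs 63.9% and intergenic CpGs 64.2%. With 16 or more they kept 83.3, 81.7, 81.4 and 81.2%. Features of like density thus lay within about 3 points of each other, while density classes of the same feature lay up to 19.1 points apart. Because RRBS reads start at CCGG, the gap was also taken without CCGG sites, where it widened by 16.4 points, at CCGG sites only, 17.9 points, and where every library had at least 10 reads, 17.4 points. These 3 alternatives were chosen after the data had been seen. Depth and mapping can differ with density, and their part in the result was not tested beyond these values.

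**Figure D3:**
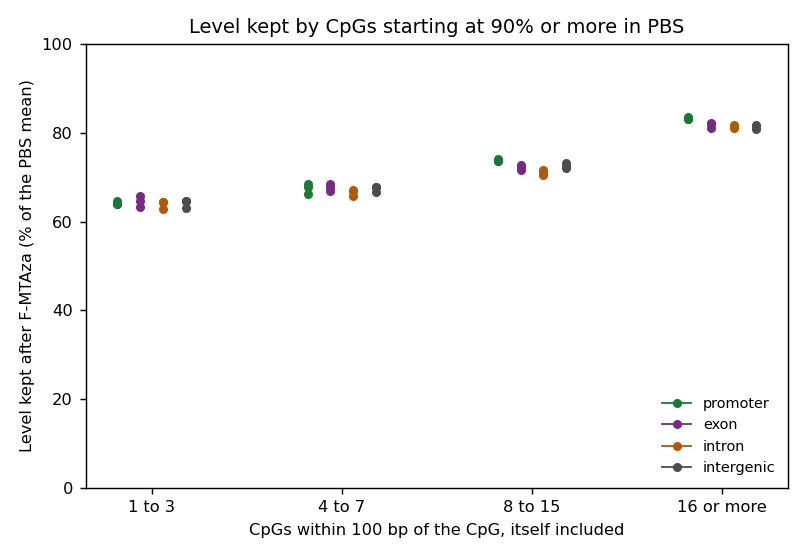
Level kept after F-MTAza (% of the PBS mean) by CpGs at 90% or more in PBS, by the number of CpGs within 100 bp of each and by feature; each point is 1 F-MTAza library. The points of the 4 features lie together at each density and rise from 62.9 to 65.8% at the sparsest to 80.9 to 83.6% at the densest.

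Promoters were next tested 1 by 1. Of 9773 promoters with at least 3 shared CpGs, limma called 25.1% hypomethylated (2452) and 0.0102% hypermethylated (1), where a call asked for means 10 or more points apart and a limma adjusted p under 0.05. The calls followed the starting level: 76.3% of the 983 promoters at 90% or more in PBS were called lower, 57.7% of those from 60 to 80%, and 11.4% of those from 10 to 30%. None of the 4643 under 10% was called lower, since they could not fall by 10 points. Leaving out a PBS library lowered the count to 1358 without replicate 1, 1230 without replicate 2 and 1368 without replicate 3. Every treated library was below every PBS library at 4655 promoters (47.6%) and above at 13 (0.133%).

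Among promoters with 10 or more shared CpGs the deepest falls were those of Gramd2, Krt79, Ndufb11, C78197, Hsf4, Iqsec3, Aars, Dctd, Ercc6l and Dnaic2, which lost between 38.2 and 47.2 points. Each lies at the outermost annotated start of its gene, which need not be the start in use, and other starts were not tested as promoters. The Gramd2 promoter (chr9:59525951-59528451) read 94.5, 95.8 and 93.2% in PBS and 46.5, 53.5 and 41.8% after F-MTAza (adjusted p = 0.00386, limma). That of Krt79, a keratin, read 98.2, 97.8 and 98.2% in PBS and 44, 59.4 and 51.1% after F-MTAza. They kept 50.0 and 52.5% of their level. Only promoters without overlap between the groups could be named here, so their separation was set by the rule. The promoter of Hsf4, a heat shock transcription factor, went from 94.7% ± 1.54 to 55.6% ± 3.09 (SD, n = 3), and that of Aars, the alanyl-tRNA synthetase, from 93.9% ± 0.437 to 55.1% ± 6.54 (SD, n = 3). That of Dctd, which deaminates dCMP, fell from 90.7% to 52.4%. Ndufb11 and Ercc6l are X-linked and varied between PBS libraries. Ndufb11, a subunit of respiratory complex I, read 77.8, 74.4 and 45.9% in PBS and 5.95, 34.2 and 22.6% after F-MTAza. Its fall of 45.1 points stood beside a PBS SD of 17.5 points (adjusted p = 0.0389, limma). Ercc6l, a DNA helicase of mitosis, read 55.7, 75.6 and 55.9% in PBS and 21.1, 24.1 and 27.4% after F-MTAza. Iqsec3, an exchange factor for small GTPases, and Dnaic2, a chain of the dynein that moves cilia, went from 76.1% ± 3.34 to 37.3% ± 13.2 (SD, n = 3) and from 85.6% ± 4.28 to 47.4% ± 4.1 (SD, n = 3).

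Only Hes2, a hairy and enhancer of split repressor, had a promoter called higher. It rested on 3 shared CpGs, fewer than the rule for named promoters asks, and read 2.78, 4.6 and 8.96% in PBS and 36.7, 13.3 and 30% after F-MTAza (adjusted p = 0.0396, limma). The call was lost when any 1 library other than F-MTAza replicate 2 was left out. Of the promoters at 80% or more in PBS with 10 or more shared CpGs, 534 in all, least was lost at E130116L18Rik and Galnt11, Gm9312, Rasgrp1 and 1110032F04Rik. E130116L18Rik and Galnt11, an enzyme of mucin-type O-glycosylation, start close together on opposite strands and share their 12 CpGs, which read 87.9, 87.1 and 89.97% in PBS and 94.3, 93.7 and 92.4% after F-MTAza. Every treated library was above every PBS library there, by 5.15 points on average (adjusted p = 0.0514, limma, not called). At Rasgrp1, a Ras activator, the libraries read 88.4, 85.8 and 86.3% in PBS and 71.9, 91.1 and 92.5% after F-MTAza, and the groups overlapped. These 5 promoters were picked as the extremes of 534, whose median promoter kept 78.7% of its level.

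Gene bodies lost methylation almost throughout. Outside promoters, 12823 gene bodies had 3 or more shared CpGs, and limma called 88.4% of them lower (11330) and 0% higher (0), with 0 higher at an unadjusted p under 0.05 too and 0 higher on a logit scale. Leaving out PBS replicate 3 gave 2 higher, and leaving out F-MTAza replicate 2 or 3 gave 1. The median gene body stood at 82.0, 82.9 and 82.0% in PBS and at 53.1, 52 and 53% after F-MTAza. Above 90% in PBS 97.6% of bodies were called, and from 10 to 30% in PBS 22.5%. The deepest falls were at Ttc33, Tead2, Med9, Slc35a3, Utp20, Tbc1d2b, BC037034 (which the annotation holds under 2 IDs), Qprt and Fam171a1. The body of Ttc33 (chr15:5135525-5168336) read 98.1, 97.1 and 96.6% in PBS and 47.4, 43 and 33.1% after F-MTAza, a fall of 56.1 points (adjusted p = 0.000146, limma). At Tead2, a TEAD transcription factor of the Hippo pathway, levels were 94.4, 97.3 and 95.9% in PBS and 43.7, 50.1 and 44% after F-MTAza. These levels rest mostly on 1 stretch, since 9 of the 10 shared CpGs lie in the window of 192 bp printed above. Med9, a Mediator subunit, read 99.3, 99.2 and 97.6% in PBS and 34.2, 57.8 and 54.8% after F-MTAza. At Utp20, a ribosome assembly factor, the level went from 97.2% ± 1.28 to 48.8% ± 7.01 (SD, n = 3), and at Qprt, an enzyme of NAD synthesis, from 85.9% ± 2.38 to 39.2% ± 10.5 (SD, n = 3). The treated libraries spread widely at Tbc1d2b, with 57.6, 28.0 and 24.5%, against 84.1, 86.7 and 84.5% in PBS. Gene bodies with overlap between the groups could not be named among the deepest falls.

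Intergenic sequence was tested in windows of 10 kb, leaving out CpGs in genes and promoters. Of 20923 windows limma called 85.3% lower (17850) and 0% higher (0), with 1 higher at an unadjusted p under 0.05 and 0 higher on a logit scale. Leaving out PBS replicate 2 gave 1 higher, F-MTAza replicate 1 gave 3 and F-MTAza replicate 2 gave 4. The median window stood at 79.7, 80.8 and 79.6% in PBS and 50.5, 49.8 and 50.8% after F-MTAza. The deepest fall, chr17:60060001-60070000, lay 900596 bp from its nearest gene, 4930505H01Rik, and read 92.4, 95.8 and 90.3% in PBS and 53.6, 46.9 and 23.1% after F-MTAza. A window 560 bp from E2f7, a repressor of the E2F family, read 88.1, 90.3 and 91.3% in PBS and 51.9, 38.7 and 45.4% after F-MTAza. One 2809 bp from Gfpt1, the entry enzyme of hexosamine synthesis, read 92, 98.7 and 93% in PBS and 54.1, 50.4 and 49.97% after F-MTAza. One 409 bp from Pdcd1lg2, which encodes the immune checkpoint ligand PD-L2, read 91.4, 93.8 and 91.5% in PBS and 47.7, 48.8 and 51.6% after F-MTAza. In these last 3 every treated library lay far below every PBS library. Others lay nearest to 1700018L24Rik, Gm16631, Gm9951, Wif1, 4732465J04Rik and 4930524J08Rik, and lost between 42.6 and 45.0 points. Of features at 80% or more in PBS with 10 or more CpGs, the median window kept 69.2% of its level, the median gene body 67.4% and the median promoter 78.7%.

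Joined over 500 bp, the called CpGs formed 63834 hypomethylated and 16 hypermethylated regions (19 to 49 when 1 library was left out, with 28 and 24 without PBS replicates 1 and 2 and 39, 49 and 29 without F-MTAza replicates 1 to 3). Most were small, since 58.2% of the lower regions held 1 called CpG and 2620 held 5 or more. Of the latter, the deepest fall was at the Pcnt intron printed above, in the gene for the centrosomal scaffold pericentrin, from 97.9% to 28.3%. The Kcmf1 intron, in a ubiquitin ligase gene, read 99.1, 100 and 95.8% in PBS and 17.5, 32.1 and 37.4% after F-MTAza. The Gtf3c1 intron, in the gene of a TFIIIC subunit for RNA polymerase III, read 97.3, 100 and 100% in PBS and 55.9, 14 and 24.6% after F-MTAza. At the former all treated libraries were under 40%, while at the latter F-MTAza replicate 1 stood well above replicates 2 and 3. A region in the promoter window of Gm15708, inside the bodies of Bri3 and Baiap2l1, read 97.9, 96 and 90.4% in PBS and 48.8, 29 and 12.9% after F-MTAza. Of the other regions named by the rule, 5, in Gm11292, Wdr33, 9030624J02Rik and near Gm14249 and Cldn26, fell by 61.5 to 67.4 points.

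Gene bodies were then compared with the common fall. For 5632 bodies at 60% or more in PBS with 10 or more shared CpGs, log2 of the level plus 1 point was centred on the library median, and limma asked which kept more or less than the median body, which kept 67.1%. It called 2.17% that kept more (122) and 0.302% that kept less (17). These counts depend on the libraries. With any 1 PBS library left out both were 0, with a smallest adjusted p of 0.219 (limma). All 122 and all 17 still had an unadjusted p under 0.05 in the same direction. They had been picked by their small p in these same libraries, so this is no separate support for the calls. Without F-MTAza replicates 1, 2 and 3 there were 370, 304 and 335 that kept more and 149, 115 and 107 that kept less. At an unadjusted p under 0.05 the full set gave 768 and 349.

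Bodies that kept more were dense in CpGs. The median number of CpGs in these stretches around their CpGs was 16.2, against 5.98 over all 5632 and 4.67 for those that kept less. Of the 122, 109 lay in the densest of 4 equal classes of bodies, and their CpGs were mostly exonic, with a median of 83.3% in exons against 25.7% over all bodies. From the sparsest to the densest class the median body kept 64.5, 66.1, 67.5 and 71.7%. Across the 5632 bodies Spearman's rho of density and share kept was 0.43, a description over genes that share the same libraries.

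The 10 called bodies that kept most were those of Irs1, Fbll1, Cbln4, Tlx2, Oxct2a, Dact3, Bmp8a, Insm2, Nkx2-1 and Gm1614. Irs1, the insulin receptor substrate, read 78.8, 76.9 and 75.8% in PBS and 73.6, 75.7 and 83.3% after F-MTAza, so the groups overlapped and its level did not pass the test of a fall. Fbll1, a fibrillarin-like gene, read 88.3, 91.1 and 94.3% in PBS and 81.5, 92.1 and 93.4% after F-MTAza, and again the groups overlapped. At Insm2, a zinc finger transcription factor gene, levels were 98.8, 97.9 and 98.1% in PBS and 90.7, 93.5 and 89.7% after F-MTAza, lower in every treated library by a few points. Nkx2-1, the homeobox regulator of thyroid and lung, read 88.9, 89.9 and 90.9% in PBS and 82.5, 83.1 and 84.7% after F-MTAza. Dact3, a Wnt antagonist, read 98.7, 99.1 and 99.3% in PBS and 97.2, 88.7 and 94.9% after F-MTAza. Tlx2 is also a homeobox gene, Cbln4 encodes a synaptic organizer and Oxct2a a ketone body transferase of testis. Bmp8a shares CpGs with Oxct2a, which lies inside it, so these are not separate measurements. Each kept between 92.5 and 100.5% on average, where the common fall left 67.1%. Gm1614, the lowest of them, fell by 7.17 points.

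The 10 that kept least were Prosc, Tead2, Skil, Slc24a2, Fam171a1, Golga7, Gm16157, Dip2c, Galnt3 and Sema3c. At Tead2 9 of 10 shared CpGs lie in 1 intronic window of 192 bp, and at Gm16157 8 of 11 in 1 of 193 bp. These 2 windows share a run of 35 identical bases, and repeats were not annotated. Prosc, a pyridoxal phosphate binding protein gene, read 85.8, 83.5 and 86.7% in PBS and 41.7, 37.9 and 37.4% after F-MTAza, or 45.7% kept (log2 difference from the common fall -0.52, SE 0.055, adjusted p = 0.02, limma). Skil, which encodes the Smad repressor SnoN, read 88.3, 86.5 and 87.1% in PBS and 41.5, 41.8 and 46.1% after F-MTAza. Galnt3, another enzyme of mucin-type O-glycosylation, had 40 shared CpGs and read 71, 71.8 and 72.5% in PBS and 38.5, 38.9 and 37.5% after F-MTAza. In all 3 the treated libraries lay within 5 points of each other. Sema3c, a semaphorin, and Slc24a2, a sodium, potassium and calcium exchanger, kept 53.5 and 50.3%. The density around the CpGs of these bodies was between 3.22 and 7.85.

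**Figure D4:**
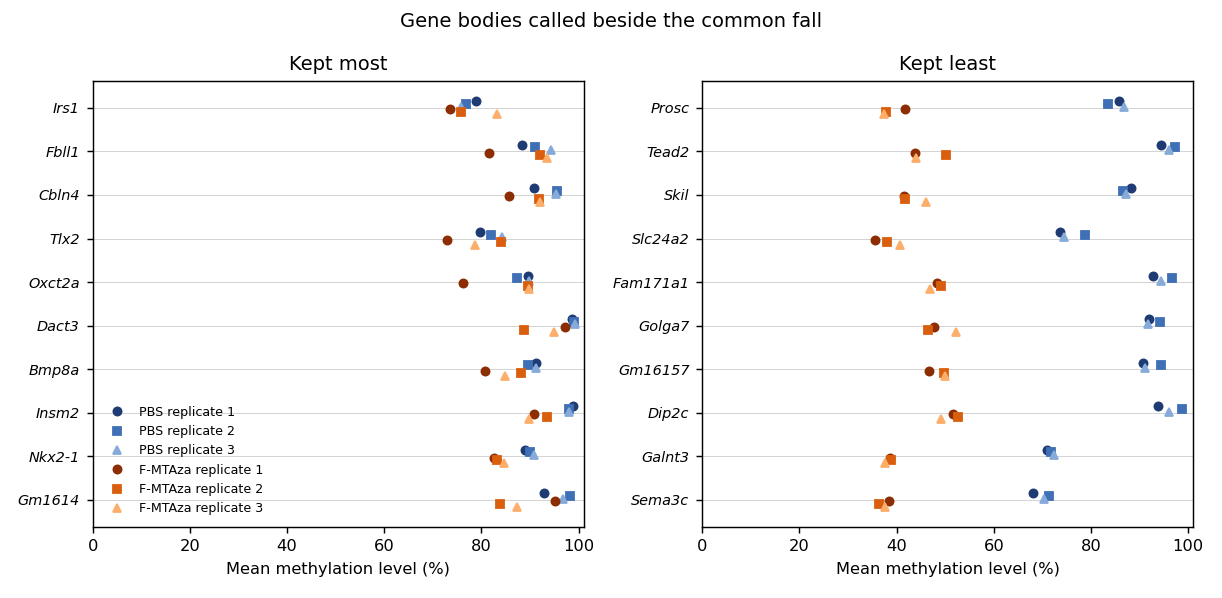
Mean methylation level (%) of the 10 called gene bodies that kept most (left) and least (right) beside the common fall; each point is 1 library, blue for PBS and orange to brown for F-MTAza. On the left the treated points overlap PBS or lie a little under it, and on the right they lie between 35.5 and 52.6%, clear of the PBS points.

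Gene lists for this tissue and these drugs were read as counts beside all features tested, 25.1% of promoters and 88.4% of gene bodies being called lower. Among kidney development genes 8 of 21 promoters were called lower. That of Fgfr1, a fibroblast growth factor receptor of nephron formation, read 77.9, 86.5 and 75.7% in PBS and 31.6, 38.8 and 31.6% after F-MTAza over 4 CpGs. Hoxa11, a patterning gene of the metanephros, read 92.5, 93.1 and 94.1% in PBS and 75, 80.3 and 70.2% after F-MTAza, and Lhx1, a homeobox regulator of early kidney, read 82.7, 86.5 and 82.5% in PBS and 66.7, 71.6 and 60.9% after F-MTAza. Fgf8 went from 73.7% ± 4.48 to 55.9% ± 0.601 (SD, n = 3). The list began at a median of 55.1% in PBS, against 12.9% over all promoters, and calls followed starting level. Of its gene bodies 26 of 30 were called lower.

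Of 8 proximal tubule promoters 6 were called lower, from a median of 82.3%. Among all promoters from 80 to 90% in PBS 68.4% were called lower. Hnf4a, a nuclear receptor that sets proximal tubule identity, read 86.1, 90 and 83% in PBS and 44.3, 31.2 and 35% after F-MTAza over 4 CpGs (adjusted p = 0.00403, limma). That window lies at the outermost annotated start of Hnf4a, and other starts of the gene were not tested as promoters. The organic anion transporter gene Slc22a8 read 89.3, 89.9 and 90.1% in PBS and 64.4, 48.6 and 42% after F-MTAza, and Cyp27b1, which activates vitamin D, read 97, 93.1 and 93.9% in PBS and 63, 53.9 and 73.3% after F-MTAza. In all 3 every treated library was below every PBS library, which held for all 2452 promoters called lower. Among markers of other kidney cells 5 of 10 were called, with Col1a1, the collagen of fibroblasts, from 96.1% ± 2.26 to 54.2% ± 14.6 (SD, n = 3), Aqp3, a water channel of the collecting duct, from 75.8% ± 2.01 to 45.4% ± 2.93 (SD, n = 3), and smaller falls at Pdgfrb, Podxl and Pecam1.

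Of cystic kidney disease genes 1 of 14 promoters was called, Ganab, a glucosidase subunit that acts on polycystin maturation, from 33.4% ± 1.8 to 22.7% ± 4.28 (SD, n = 3). The list's median promoter stood at 2.17% in PBS, so most of its members had no methylation to lose. Of its gene bodies 20 of 22 were called lower. The Pkd1 body, over 16 CpGs, read 60.9, 65.2 and 61.3% in PBS and 44.4, 39.3 and 37.3% after F-MTAza (adjusted p = 0.000697, limma). Its promoter read 66.6, 64.4 and 63.1% in PBS and 36, 45.3 and 57.1% after F-MTAza and missed the threshold (adjusted p = 0.056, limma). The Pkd2 body went from 46.3% ± 0.511 to 34.1% ± 0.963 (SD, n = 3).

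For the pathways the added drugs act on, 5 of 22 promoters of cAMP and vasopressin signalling were called and 8 of 21 of AMPK and mTOR signalling. In the former, Pde1b and Pde3a encode phosphodiesterases that break down cyclic nucleotides. Pde3a read 84, 85.3 and 82.5% in PBS and 72.9, 59.4 and 68.8% after F-MTAza. Avpr1a, the V1a vasopressin receptor, read 89, 90.4 and 86% in PBS and 65.2, 68.5 and 68.7% after F-MTAza over 33 CpGs. The outermost annotated promoter of Gnas, a gene that encodes the stimulatory G protein subunit, read 97.4, 98.6 and 96.4% in PBS and 76.9, 73.6 and 69.8% after F-MTAza. Other starts of Gnas were not tested as promoters, so these levels need not be those of the start of the G protein transcript. In the AMPK and mTOR list Cpt1b, which carries fatty acids into muscle mitochondria, read 92.2, 100 and 97.7% in PBS and 43.7, 64 and 40.9% after F-MTAza, and Acacb, an acetyl-CoA carboxylase, read 69.6, 59.8 and 76.8% in PBS and 23.1, 48.1 and 21.8% after F-MTAza. Eif4ebp1, a translation repressor that mTOR phosphorylates, read 58.6, 57.6 and 63.9% in PBS and 15, 30.2 and 29% after F-MTAza, and Cab39, a partner of the AMPK kinase LKB1, went from 91.9% ± 3.2 to 52.9% ± 7.11 (SD, n = 3). Gene bodies were called lower in 32 of 36 and 27 of 32 cases.

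**Figure D5:**
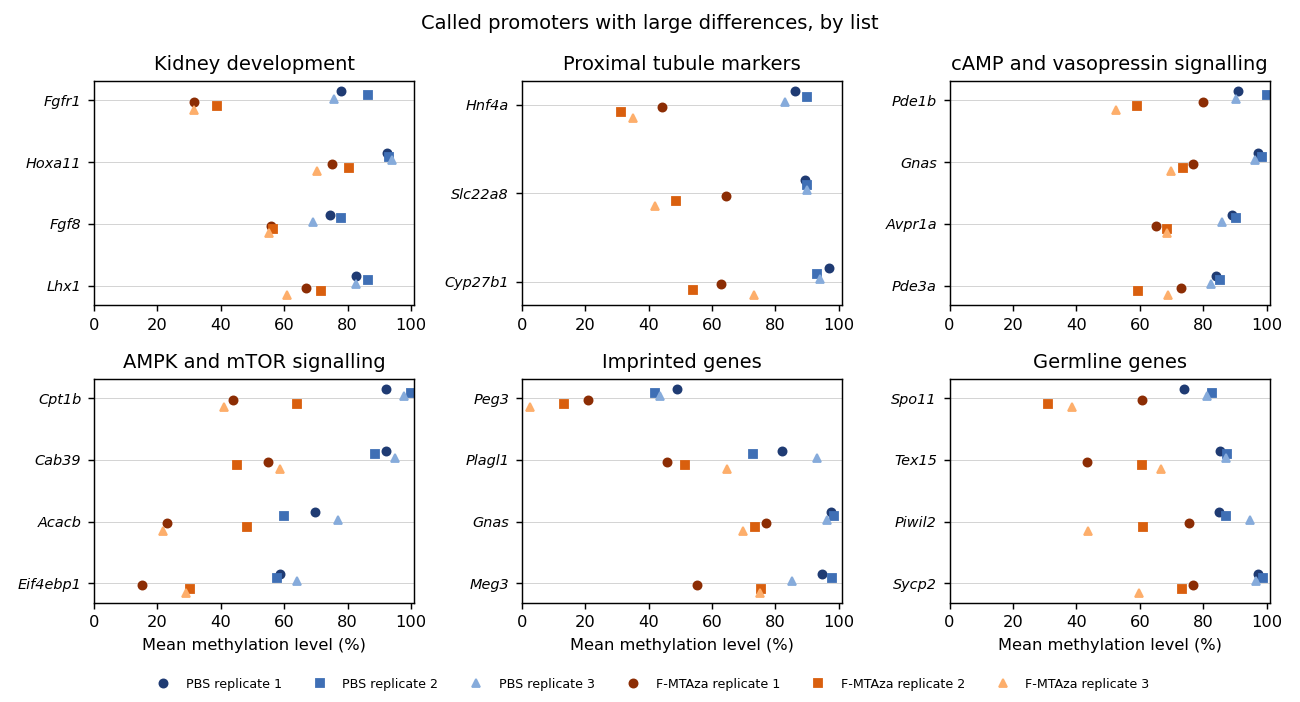
Mean methylation level (%) of called promoters with large differences in 6 of the gene lists; each point is 1 library, blue for PBS and orange to brown for F-MTAza. In every promoter shown, as in all 2452 called lower, the F-MTAza points lie below the PBS points. They spread more widely than PBS at Piwil2 (43.8 to 75.5%) and Spo11 (31.0 to 60.7%).

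Of Wnt and Hippo promoters 10 of 30 were called lower. The Wnt ligand gene Wnt7b read 87, 82.8 and 83.6% in PBS and 45.8, 43.6 and 59.6% after F-MTAza, and Lrp5, a Wnt co-receptor, read 85, 83.9 and 83.9% in PBS and 59.3, 47.2 and 50.7% after F-MTAza. Dkk3 and Fzd7, a Dickkopf gene and a Frizzled receptor, went from 91.5% ± 4.84 to 61.8% ± 11.8 (SD, n = 3) and from 87.4% ± 9.85 to 58.8% ± 7.68 (SD, n = 3). Germline genes, which somatic cells keep silent by promoter methylation, had 15 of 20 promoters called. Their median promoter stood at 92.1, 91.2 and 93.5% in PBS and 68.1, 68.4 and 65.8% after F-MTAza. Of all promoters at 90% or more in PBS 76.3% were called lower, so the germline count was near the share at that start. Tex15, needed for meiosis in the male germline, read 85.2, 87.4 and 87.1% in PBS and 43.2, 60.9 and 66.7% after F-MTAza, and Sycp2, of the synaptonemal complex, read 97.4, 98.8 and 96.7% in PBS and 76.9, 73.2 and 59.7% after F-MTAza. Spo11, which makes the DNA breaks of meiosis, read 73.8, 82.8 and 81.3% in PBS and 60.7, 31 and 38.5% after F-MTAza and Piwil2, of the piRNA pathway, 85, 87.2 and 94.8% in PBS and 75.5, 60.9 and 43.8% after F-MTAza. No germline promoter with a fall was emptied, the lowest mean being that of Spo11 at 43.4%.

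Imprinted genes carry methylation on 1 parental copy at their control regions, which in bulk DNA reads near the middle. In 6 of 15 of their promoters the call was lower. Peg3 started there, at 48.9, 41.9 and 43.6% in PBS and 21, 13.3 and 2.5% after F-MTAza, and kept 27.4% over 5 CpGs. Plagl1 read 82.1, 72.8 and 93.1% in PBS and 45.7, 51.5 and 64.6% after F-MTAza, and Meg3 94.7, 97.7 and 85.1% in PBS and 55.3, 75.4 and 75% after F-MTAza. In all 3 the spread among replicates was wide. No treated library reached the lowest PBS library, as at all 2452 promoters called lower. Gnas, given above, is also in this list. Of homeobox and Polycomb-type regulators 17 of 39 promoters were called, with Pax9 from 84% ± 5.67 to 50.6% ± 7.98 (SD, n = 3) and Gata3 from 69.99% ± 3.65 to 45.1% ± 4.87 (SD, n = 3), beside Tbx15 and Gata2. Their gene bodies had a median log2 difference from the common fall of 0.12, against 0.02 over all bodies. Of these, 4 of 29 were called to have kept more, against 2.17% of all bodies tested. In the densest of the 4 classes of bodies 109 of 1408 were so called, with a median log2 difference of 0.11. The density of the listed bodies was not compared with that of others. Like all calls of bodies that kept more, the 4 were lost without any 1 PBS library and with the replicate number as a block.

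Genes of DNA methylation itself had 3 of 14 promoters called. Trim28, a corepressor that guards imprints, read 97.5, 98.9 and 97.2% in PBS and 75.8, 54.2 and 33.9% after F-MTAza, and Hells, a chromatin remodeller needed for methylation, read 93.3, 96.8 and 92.9% in PBS and 42.9, 60.4 and 63.6% after F-MTAza. Zbtb4, a reader of methylated DNA, went from 87.3% ± 5.82 to 58.9% ± 6.32 (SD, n = 3). Of cell cycle and p53 genes 4 of 25 were called, from a median start of 2.48%. They were Mgmt, a DNA repair gene, E2f1, E2f2 and Ccne1, with E2f1 from 40.8% ± 2.61 to 23.1% ± 5.55 (SD, n = 3). Interferon response genes had 1 of 11, Oas2, an antiviral sensor, from 93.9% ± 3.21 to 68.9% ± 6.76 (SD, n = 3). Housekeeping genes had 2 of 11, Rplp0 and Ppia, a ribosomal protein and cyclophilin A, each over 3 CpGs. All these promoters were taken at the outermost annotated start, and other starts of the genes were not tested as promoters. The levels therefore need not be those of the start in use.

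Of the genes the study names in connection with methylation, 2 of 7 promoters were called, Fgfr1 as above and Wt1, a regulator of podocytes and of kidney formation, which read 87.5, 91.9 and 87% in PBS and 80.4, 80.5 and 74.7% after F-MTAza. The list was chosen by the study on samples that include these, so it is not independent evidence of a direction. The promoters of Pax2 and Myc were already under 10% in PBS and so had little to lose. After treatment they stood near 0 in every library, at 0.15% and 1.13% on average. That of Gdnf, the ligand of Ret, read 70.4, 65 and 51.1% in PBS and 56.6, 52.6 and 54% after F-MTAza, and the groups overlapped. In gene bodies 12 of 13 entries were called lower. Pax2, over 129 CpGs, read 55.4, 57.2 and 54.6% in PBS and 34.9, 36.4 and 36.2% after F-MTAza, Daglb, over 51, read 93.6, 94.2 and 92.8% in PBS and 58.6, 56.9 and 65.3% after F-MTAza, and Ctnnb1, which encodes beta-catenin, read 44.8, 47.3 and 42.1% in PBS and 19.7, 27.4 and 26% after F-MTAza. Myc, whose body stood at 1.67% in PBS and 1.27% after F-MTAza, was the exception. The bodies of Gdnf, Dclre1c, Wt1, Wnt4 and Sall1 fell by 12.3 to 25.8 points. Sall1, a zinc finger regulator of the ureteric bud, had a promoter at 53.5, 58.8 and 53% in PBS and 41.6, 47.2 and 34.7% after F-MTAza, which missed the threshold (adjusted p = 0.0518, limma).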

How the data were processed

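The 6 libraries were RRBS libraries of PKD1-Het cells. Per the labels and the study's methods, the authors used Trim Galore 0.4.4 for trimming and Bismark 0.20.1 with Bowtie2 for alignment to mm9, merged both strands of a CpG and deposited 1 list per library of CpGs with 5 or more reads. The deposited lists give methylated over total reads for each CpG and, from the same reads, a percent methylation that the authors rounded down to a whole number. The read counts were used throughout, and the percent column served only to check them. Samples were grouped by their labels alone.

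Levels are means over CpGs, each counted once. CpGs were placed against 26225 protein-coding, lincRNA and processed-transcript genes of the mm9 annotation, with promoters (the 2000 bp before and 500 bp after a start site) taken before exons, introns and intergenic sequence. Each gene had 1 start site, the outer end of its annotated span. Other start sites of a gene were not tested as promoters. Starting classes came from 2 PBS libraries, with the PBS level from the third. CpGs were tested by a binomial likelihood ratio test. Promoters, gene bodies and 10 kb intergenic windows with 3 or more shared CpGs were tested with limma 3.58.1 on the arcsine square root of the level, with Benjamini-Hochberg adjustment over all features of a kind. The common fall was tested with limma on log2 of the level plus a pseudocount of 1 point, centred on each library's median. Single values were compared by exact two-sided permutation of the 6 libraries, for which 0.1 is the smallest p.

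Named were the 10 largest falls of each kind with 10 or more shared CpGs and no overlap, the 10 gene bodies that kept most and least, the 5 smallest falls of promoters at 80% or more, up to 4 called promoters of each gene list, the genes the study names, the 10 deepest regions with 5 or more called CpGs, and all CpGs called higher. A few of these items are not reported here. The members and lists were chosen with earlier results of these data known. The tests were first tested on simulated data. Alternatives were other read minimums, weights, scales, filters, thresholds, centring, a replicate block and leaving out each library. R 4.3.3 and Python 3.11.15 were used, the latter with pandas 2.3.3, scipy 1.17.1, numpy 2.4.6, matplotlib 3.10.9 and pysam 0.24.0. Reads carry no molecular identifiers, so PCR copies may be counted as separate molecules, and calls from pooled reads cover counting error only.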

Additional observations from a re-analysis of the deposited data

How the results depend on the processing

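Mean levels overall and by starting class and feature were lower after F-MTAza under every read minimum, weighting and left-out library tried. The overall level fell by 21.3 points, by 19.7 weighted by reads and by 23.4 at 20 reads in all 6 libraries, the lowest and highest of its alternatives. Counts of calls depended on depth and thresholds. At 10 reads in all 6 libraries 23247 of 112275 CpGs were lower and 1 was higher, and at 20 reads 3068 of 15635 and 0. With 25 points 204800 were lower and 72 higher, and with 50 points 21717 and 0. limma on CpG levels gave 14732 and 1. The F test scaled by each CpG's own spread gave 0 and 0 (99226 lower and 9 higher at an unadjusted p under 0.05, smallest q 0.0228). It also gave 0 and 0 on simulated data with known changes, where far fewer CpGs were changed. The chi-square version of this test, added after seeing the data, gave 96347 lower and 9 higher. Regions numbered 15265 lower and 1 higher at 10 reads, and 11738 and 0 with 3 or more called CpGs.

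Promoters called lower numbered 1124 (0 higher) with 10 or more CpGs, 803 (0 higher) at 10 reads and 1605 at 20 points, and 2 were higher when weighted by reads or with no filter. Gene bodies called lower numbered 6502 with 10 or more CpGs and 4888 at 10 reads, where fewer were tested. Windows numbered 2885 and 4671, and 14 were higher with no filter. Bodies that kept less numbered 10 and those that kept more 56 when weighted by reads, 7 and 73 at 10 reads, and 62 kept more when centred on the mean. With 1 library left out, CpGs called higher ranged from 34 to 82, regions higher from 19 to 49, promoters lower from 1230 to 2136 and higher from 0 to 2, gene bodies higher from 0 to 2, windows higher from 0 to 4, and bodies that kept less from 0 to 149 and more from 0 to 370. Where the count changed and the setting itself tested no fewer features, the cause was not tested.

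With the replicate number as a replicate block, 1453 promoters were called lower and 0 higher, and 0 gene bodies kept more or less. All 122 and 17 still had an unadjusted p under 0.05 in limma, but they had been picked by their small p in these same libraries. Deviations of same-numbered libraries correlated at -0.0112, 0.0294 and 0.0316, and those of differently numbered libraries at -0.0383 to 0.00646. All were small, so no strong pairing by number was seen, though a weak one may be present. Of 1500 values of 135 single named results under the alternatives, 1281 kept their call, 212 lost it, 7 gained one and 0 reversed.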

Other observations

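Among CpGs at 90% or more in PBS, those on the X chromosome kept 71.0% of their level and those on autosomes 68.6%, while single autosomes lay between 67.8% and 69.5%. By the bases on either side of the CpG, CpGs in CCGG, the cut site of the library enzyme, kept 62.1%, and those in GCGC kept 71.7%. The intronic windows of Tead2 and Gm16157, both gene bodies that kept less than the median body, share a run of 35 identical bases. Repeats were not annotated here, so these CpGs are not counted as separate from copies elsewhere in the genome.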
